A study of Homo sapiens with 6 samples.

Results

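Alpha and beta tubulin isotypes other than TUBB were examined in AGS, a cell line from a human gastric adenocarcinoma. The genes were listed by name: the beta isotypes TUBB2A, TUBB2B, TUBB3, TUBB4A, TUBB4B and TUBB6, and the alpha isotypes TUBA1A, TUBA1B, TUBA1C and TUBA4A. This list was chosen with earlier results of these data known, so counts of its genes beside shares of all genes are descriptions only. All 10 were found among the 58174 genes of the expression table. RNA was sequenced from 3 libraries labelled si-NC and 3 labelled si-FTO, in which FTO, the gene of an RNA demethylase, was to be depleted. The labels give the si-NC cells the genotype wild type and the si-FTO cells FTO-/-, whereas the methods of the study describe siRNA, so the means of depletion cannot be told apart here. The methods speak of independent experiments for the data in general. Whether the libraries of a group came from separate cultures is not stated for the sequencing itself. The values are TPM, a length-scaled share of all transcripts, and the table holds only the authors' mean of each group. No spread between libraries, and so no test, could be computed for any value, and TPM keeps no record of sequencing depth.

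FTO was lower in the group labelled as depleted, with a mean TPM of 33.1 in si-NC against 7.27 in si-FTO, 4.56-fold lower. The labelled cell type was checked with 12 genes of gastric or intestinal epithelium. Of these, 6 had at least 1 TPM in si-NC against 5 in si-FTO, and their summed TPM was 87.9 and 5118. The keratins KRT18, with 52.1 TPM the most abundant in si-NC, and KRT8, with 3139 TPM the most abundant in si-FTO, made up most of these sums. KRT18 had 1851 TPM in si-FTO, and KRT8 had 10.8 TPM in si-NC. ELF3, MUC1 and CLDN4 had 0.115, 1.71 and 0.226 TPM in si-NC against 93.3, 31.0 and 2.70 TPM in si-FTO. Of the 8 genes with at least 0.5 TPM in a group, 5 were higher and 2 lower past the threshold set below. Over all genes the shares were 11.4% and 17.0%. Other defining genes were absent or nearly so: TFF1 was listed at 0 in both groups, GRHL2 and ESRP1 were listed at 0 in si-FTO and at 0.0037 and 0.083 TPM in si-NC, and KRT19 was listed at 0 in si-NC and at 0.13 TPM in si-FTO. The epithelial adhesion gene EPCAM had 1.22 TPM in si-NC against 0.113 TPM in si-FTO. The intestinal transcription factor gene CDX2 had 18.1 TPM in si-NC and was listed at 0 in si-FTO. The groups therefore differed in markers of the labelled tissue as well as in FTO. Whether both groups are the same cells cannot be told from these values, and every ratio of si-FTO over si-NC given here carries that doubt. The part of those differences in the tubulin levels was not tested.

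Microtubules are hollow filaments of alpha and beta tubulin dimers that form the mitotic spindle, the axoneme of cilia and the tracks of intracellular transport. Vertebrates encode each subunit in several genes, the isotypes, which are most alike in their core and differ mainly in an acidic tail at the carboxyl end, where enzymes add glutamate chains or remove a terminal tyrosine and where motors and associated proteins bind. TUBB, TUBB4B, TUBA1B and TUBA1C are used by most dividing cells, whereas TUBB2A, TUBB2B, TUBB3, TUBB4A and TUBA1A are best known from the nervous system.

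The last 60 bases of the coding sequence, which encode most of the tail, were compared between isotypes. This stretch does not tell every isotype from every other: those of TUBA1A and TUBA1B, not shown, differed at 0 bases. GRCh37 bases at the ends annotated by GENCODE are shown, 5′ to 3′ with the stop codon, and capitals mark the glutamate codons GAA and GAG. In each of the transcripts shown the stretch lies in exon 4 of 4.

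TUBB2A (chr6:3154097-3154156, minus strand): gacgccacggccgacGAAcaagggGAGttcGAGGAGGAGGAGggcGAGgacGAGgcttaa
TUBB2B (chr6:3224985-3225044, minus strand): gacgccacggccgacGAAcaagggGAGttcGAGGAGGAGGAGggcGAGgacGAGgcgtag
TUBB4A (chr19:6495175-6495234, minus strand): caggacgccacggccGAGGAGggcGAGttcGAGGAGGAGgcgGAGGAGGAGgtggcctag
TUBB4B (chr9:140137949-140138008, plus strand): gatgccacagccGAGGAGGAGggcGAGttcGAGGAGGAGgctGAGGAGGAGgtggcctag
TUBA4A (chr2:220115074-220115133, minus strand): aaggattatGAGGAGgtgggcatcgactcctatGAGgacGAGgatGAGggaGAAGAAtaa

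The tails of TUBB2A and TUBB2B had 8 glutamate codons each and differed at 2 of 60 bases. These lay in the last alanine codon and the stop codon, so the encoded residues were the same. The stretch of TUBB4A had 9 glutamate codons, that of TUBB4B had 10, and these differed at 10 bases when compared position by position without alignment. The additional GAG of TUBB4B offsets the bases before it, so this count overstates how much the stretches differ. TUBA1C ended in the tyrosine codon TAT before the stop codon, whereas TUBA4A ended in the glutamate codon GAA, without a codon for the terminal tyrosine that is removed and added back on other alpha tubulins. Over the whole coding sequence, beta isotypes were 83.4% to 98.1% identical in pairs and alpha isotypes 85.0% to 97.3%.

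The isotypes differed in direction: 3 were markedly lower in si-FTO, 1 was markedly higher, and the most abundant alpha and beta members were close in both groups. A log2 ratio was computed as si-FTO over si-NC after adding 1 TPM to each mean, which understates the difference of low genes, and a size of at least 1 was taken as past the threshold. All 10 isotypes reached 0.5 TPM in a group, the minimum set for a ratio, and 10 of 10 also reached 10 TPM. TUBB2A, TUBB2B and TUBB4A were lower past the threshold, TUBA4A was higher, and 6 isotypes were not past it. Among all 20493 genes with at least 0.5 TPM, 17.0% were lower and 11.4% were higher by the same threshold. Among the 10785 genes with at least 10 TPM, the shares were 15.0% and 13.3%. The median log2 ratio was -1.97 over the beta members and 0.36 over the alpha members, beside -0.20 over all 20493 genes.

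**Figure D1:**
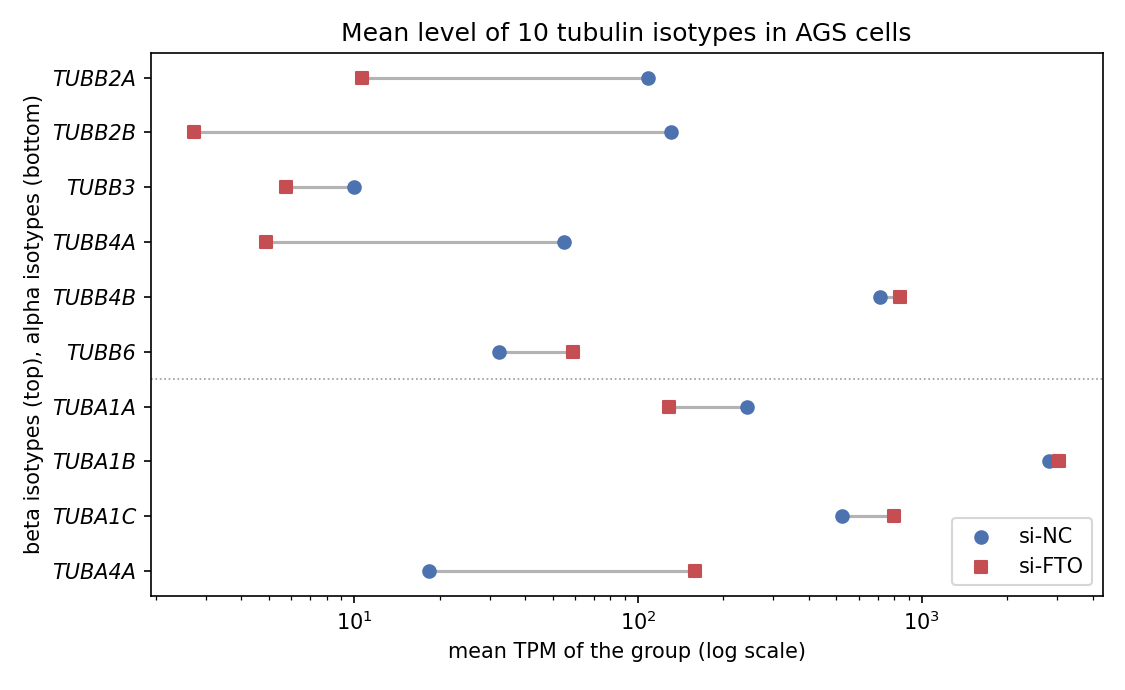
Mean TPM of each isotype in si-NC (circles) and si-FTO (squares), on a log scale, 1 authors' mean per group and no error bars because single libraries were not given. TUBB2B spans 130.3 to 2.73 TPM and TUBA4A 18.4 to 158.7 TPM, while TUBA1B leads in both groups.

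**Figure D2:**
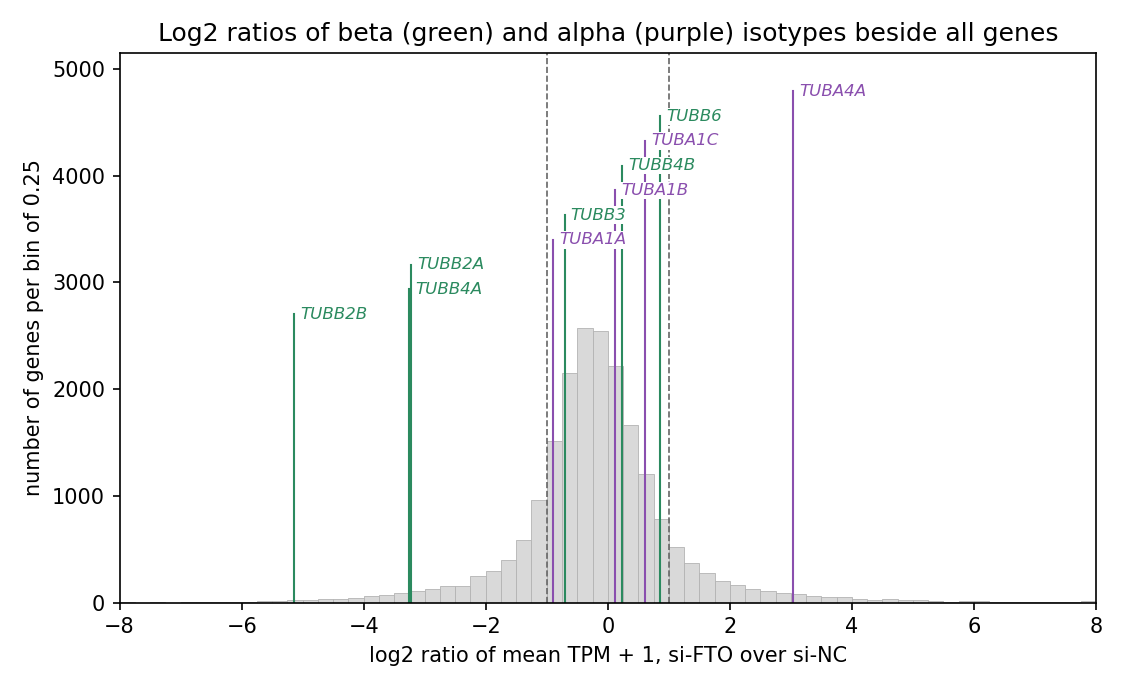
Log2 ratio of mean TPM + 1, si-FTO over si-NC, for the beta (green) and alpha (purple) isotypes, over the number of all genes with at least 0.5 TPM per bin of 0.25 (grey bars, values beyond 8 in size placed in the outer bins). Dashed lines mark ratios of 1 in size, and TUBB2A, TUBB2B and TUBB4A lie to the left and TUBA4A to the right of them.

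In si-NC the order of levels was TUBA1B, TUBB4B, TUBA1C, TUBA1A, TUBB2B, TUBB2A, TUBB4A, TUBB6, TUBA4A and TUBB3. In si-FTO, TUBA1B, TUBB4B and TUBA1C again led, followed by TUBA4A, TUBA1A, TUBB6, TUBB2A, TUBB3, TUBB4A and TUBB2B. TUBA4A was thus at place 9 in si-NC and at place 4 in si-FTO, and TUBB2B at places 5 and 10. Whether neighbours in either order differ by more than the spread between libraries cannot be told from group means.

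Among the beta isotypes best known from the nervous system, TUBB2B, whose mutations cause malformations of the cerebral cortex, averaged 130.3 TPM in si-NC against 2.73 TPM in si-FTO. It was 47.8-fold lower in si-FTO, with a log2 ratio of -5.14, and 68 of the 20493 genes had a lower ratio. TUBB2A, its close neighbour in sequence and in the genome, had 108.2 TPM in si-NC against 10.7 TPM in si-FTO, 10.1-fold lower with a log2 ratio of -3.22. TUBB4A, abundant in brain and in the myelinating cells of the central nervous system, had 54.9 TPM in si-NC against 4.87 TPM in si-FTO. It was 11.3-fold lower, with a log2 ratio of -3.25. TUBB3, widely used as a marker of neurons, did not share differences of that size. Its mean TPM was 10.003 in si-NC against 5.73 in si-FTO (log2 ratio -0.71), and it was the lowest member in si-NC. In bulk RNA, fewer cells with a transcript and less of it per cell cannot be told apart.

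Markers of neurons were measured beside these isotypes. Of 10 such genes, 6 had at least 1 TPM in si-NC against 1 in si-FTO, and their summed TPM was 102.7 and 10.9. The neurofilament gene NEFL was the most abundant in si-NC, with 62.7 TPM, and was listed at 0 in si-FTO. The synaptic vesicle gene SYP had 14.3 TPM in si-NC against 0.743 TPM in si-FTO. SNAP25, a gene of vesicle fusion, had 0.316 TPM in si-NC against 9.72 TPM in si-FTO, and SYT1, the calcium sensor of synaptic vesicles, had 4.10 and 0.0544 TPM. The defining markers STMN2 and DCX were listed at 0 in both groups, and ELAVL4 had 0.105 TPM in si-NC and was listed at 0 in si-FTO. Of the 7 neuronal markers with at least 0.5 TPM in a group, 6 were lower in si-FTO past the threshold and 1 was higher, beside 17.0% and 11.4% of all genes, and the part of these differences in the isotype levels was not tested.

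TUBB4B, one of the isotypes used by most dividing cells, and TUBB6 did not pass the threshold in the main comparison. TUBB4B, which also builds the axonemes of cilia, had 711.8 TPM in si-NC against 837.8 TPM in si-FTO (log2 ratio 0.23). TUBB6, a divergent beta isotype of low abundance in most tissues, had 32.3 TPM in si-NC against 59.1 TPM in si-FTO (log2 ratio 0.85). TUBB6 passed the threshold only after median-ratio scaling of the groups, at 1.06. Markers of ciliated cells were near 0: the summed TPM of the 5 genes found of 6 was 0.564 in si-NC against 0.901 in si-FTO, and TEKT1 was listed at 0 in both groups. RSPH1, a gene of the radial spokes, was the only ciliary marker with at least 0.5 TPM in a group, with 0.207 TPM in si-NC against 0.726 TPM in si-FTO.

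Among the alpha isotypes, TUBA1B was the most abundant in both groups, with a mean TPM of 2814 in si-NC against 3053 in si-FTO (log2 ratio 0.12). TUBA1C, also a broadly expressed isotype, had 523.4 TPM in si-NC against 797.0 TPM in si-FTO (log2 ratio 0.61). TUBA1A, the alpha isotype of young neurons, had 241.3 TPM in si-NC against 129.1 TPM in si-FTO (log2 ratio -0.90). These ratios stayed under the threshold, in either direction. TUBA4A, an isotype of brain, muscle and platelets, had 18.4 TPM in si-NC against 158.7 TPM in si-FTO. It was 8.62-fold higher in si-FTO, with a log2 ratio of 3.04, and 479 of the 20493 genes had a higher ratio.

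The make-up of each class differed between the groups. TUBB2A, TUBB2B and TUBB4A together made up 28.0% of the summed TPM of the 6 beta members in si-NC against 1.98% in si-FTO. TUBB4B made up 68.0% in si-NC against 91.0% in si-FTO, a difference of 23.0 percentage points, and TUBB6 made up 3.08% and 6.42%. In si-NC, 5 beta members each exceeded 1% of the class, and in si-FTO 3 did. TUBB3 stayed under 1% in both groups, at 0.955% and 0.623%. Because shares sum to a fixed total, a larger share of TUBB4B does not mean a higher level: its level was 1.18-fold higher in si-FTO, and the summed TPM of the 6 beta members was 1047 in si-NC against 921 in si-FTO.

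TUBB, the leading beta isotype of most dividing cells, was outside the list but sets the scale of these shares. It had 2513 TPM in si-NC against 1894 TPM in si-FTO (log2 ratio -0.41), and made up 70.6% and 67.3% of beta tubulin once it was counted with the members. With TUBB counted, TUBB2A, TUBB2B and TUBB4A together made up 8.24% in si-NC against 0.649% in si-FTO, and TUBB4B made up 19.99% and 29.8%. The shares thus depended on the denominator, but their direction between the groups did not. The other 10 genes annotated as protein-coding alpha or beta tubulin had at most 1.69 TPM in either group. None passed the threshold, but with 1 TPM added a gene under 1 TPM in both groups could not, so no conclusion is drawn. Of these, TUBA8 had 1.69 TPM in si-NC against 1.27 TPM in si-FTO, and TUBA3D had 1.12 and 0.786 TPM. TUBB1, the beta isotype of platelets, had 0.988 and 0.479 TPM. TUBB8, TUBA3E, TUBA4B, TUBB8B and TUBA3FP were each under 1 TPM in both groups, and TUBA3C and TUBAL3 were listed at 0 in both.

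TUBA1B made up 78.2% of the 4 alpha members in si-NC against 73.8% in si-FTO. TUBA1C made up 14.5% in si-NC against 19.3% in si-FTO, and TUBA1A made up 6.71% and 3.12%. TUBA4A made up 0.512% in si-NC against 3.84% in si-FTO, so that its share exceeded that of TUBA1A in si-FTO only. The summed TPM of the 4 alpha members was 3598 in si-NC against 4138 in si-FTO. Over all protein-coding genes of both classes, alpha tubulin was 1.01 times beta tubulin in si-NC and 1.47 times in si-FTO.

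**Figure D3:**
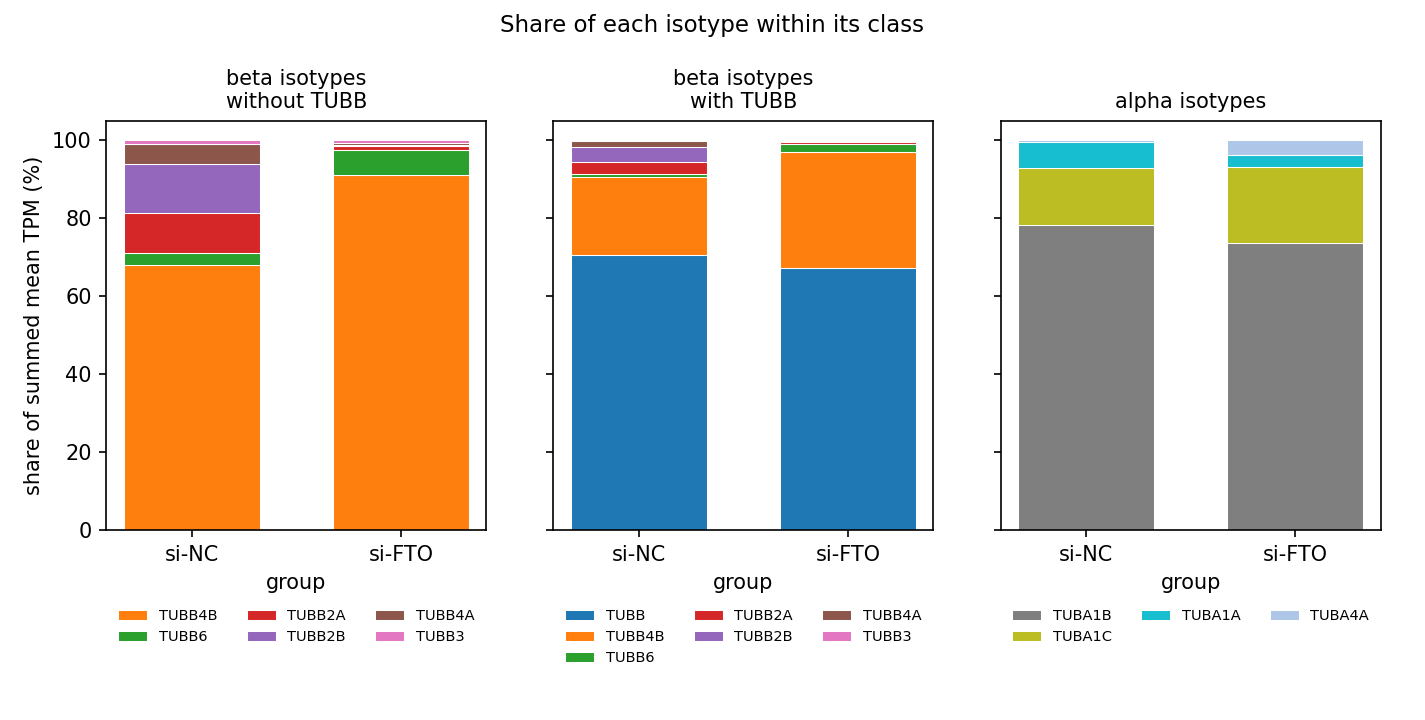
Share of each isotype in the summed mean TPM of its class, in percent, for si-NC and si-FTO: beta members without TUBB, beta members with TUBB, and alpha members. TUBB2A, TUBB2B and TUBB4A together make up 28.0% and 1.98% of the beta members without TUBB, and TUBA4A makes up 0.512% and 3.84% of the alpha members.

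Reads of near-identical genes can be assigned to the wrong copy, so each annotated transcript was compared with the transcripts of all other genes. Of the words of 75 bases in the TUBB2A transcript, 59.5% also occurred in another gene, and 56.0% occurred in TUBB2B. For TUBB2B, 52.1% of words were shared, and the split between this pair is therefore uncertain. Summed, TUBB2A and TUBB2B had 238.4 TPM in si-NC against 13.4 TPM in si-FTO, 17.8-fold lower. That sum does not depend on the split within the pair, though words shared with TUBB2BP1, TUBB3, ENSG00000198211, TUBB4A and TUBB4B remain. TUBB4B, with 837.8 TPM in si-FTO, held 4.47% of the words of TUBB2A and 3.73% of those of TUBB2B. TUBB4A and TUBA4A shared 2.18% and 3.19% of their words of 75 bases, and TUBB6 shared 0. With words of 50 bases the shares were 6.73% for TUBB4A, 5.55% for TUBA4A and 1.09% for TUBB6. Few of their words thus recur in other transcripts, overlaps on the opposite strand aside. For TUBA4A, the shared words lay in TUBA4B, which was listed at 0 in si-NC and had 0.389 TPM in si-FTO.

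TUBA1A shared 31.2% of its words with other genes, TUBA1B 48.4% and TUBA1C 18.1%. Their separate values are uncertain, among them the lower level of TUBA1A. The sum of the 3 had a log2 ratio of 0.15, but it is set mostly by TUBA1B and tells nothing about TUBA1A alone. TUBB3 shared 92.6% of its words with ENSG00000198211, a readthrough gene on the same strand that has 1584 exon bases in common with it. That gene had 1.32 TPM in si-NC against 0.295 TPM in si-FTO, so the level of TUBB3 is uncertain by how reads were divided between them. Of 50 annotated pseudogenes of alpha or beta tubulin, 7 had at least 0.5 TPM in a group. The most abundant in si-NC of the beta pseudogenes, TUBBP5, had 13.9 TPM in si-NC and was listed at 0 in si-FTO.

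**Figure D4:**
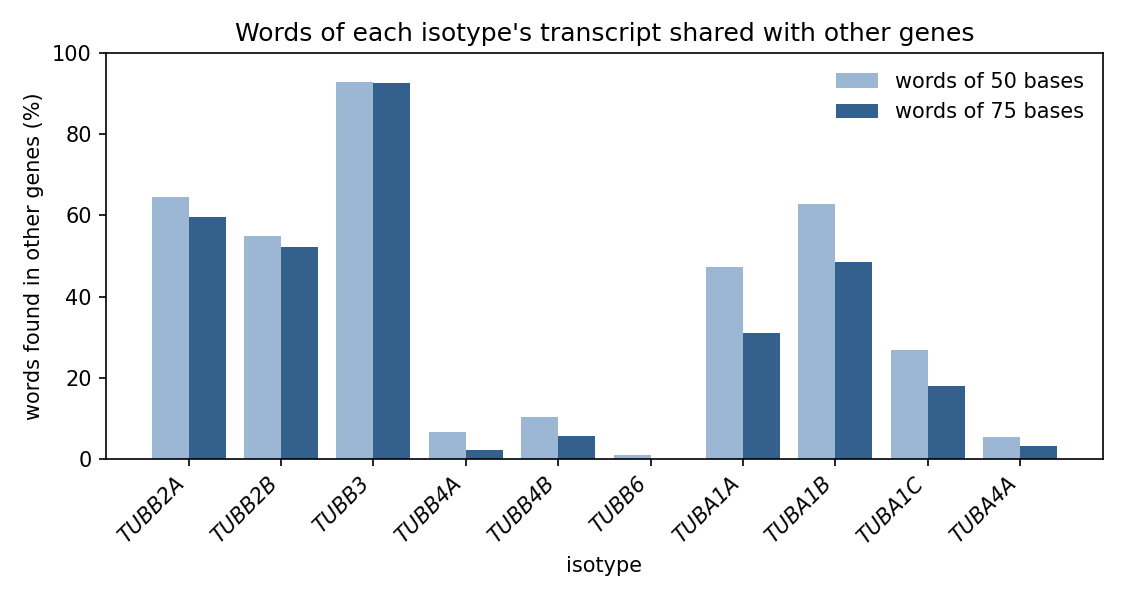
Percent of all words of 50 bases (light bars) and 75 bases (dark bars) in each isotype's annotated transcript that also occur in a transcript of another gene. TUBB3 stands at 92.6% for 75 bases because of a readthrough gene, TUBB2A at 59.5% and TUBB6 at 0.

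TUBB2A (chr6:3153731-3157778) and TUBB2B (chr6:3223558-3231964) lie on the minus strand of chromosome 6 in GRCh37, with 65779 bases between them. The pseudogene TUBB2BP1 lies between these genes and had 8.92 TPM in si-NC against 0.143 TPM in si-FTO (log2 ratio -3.12). It shared 12.9% of the words of TUBB2A and 13.2% of those of TUBB2B, so its level is uncertain. The coding genes that touch the pair from outside were closer between the groups. BPHL, a hydrolase gene beside TUBB2A, had 18.6 and 15.1 TPM, a log2 ratio of -0.29. PSMG4, a proteasome chaperone gene beside TUBB2B, had 55.7 and 42.1 TPM, a log2 ratio of -0.39. The 10 genes nearest to TUBB2B with at least 0.5 TPM had a median log2 ratio of -0.18, from -3.22 for TUBB2A to 2.30 for ENSG00000270504.

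The sequence before the start of each of these paired genes is shown because both were lower in si-FTO. RefSeq promoters were found for 10 of 10 members. The 250 bases before the start, on GRCh38.p14, are printed 5′ to 3′, and capitals mark the motif GGGCGG or its reverse complement CCGCCC, the letters of a GC box.

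TUBB2A (chr6:3157545-3157794, minus strand): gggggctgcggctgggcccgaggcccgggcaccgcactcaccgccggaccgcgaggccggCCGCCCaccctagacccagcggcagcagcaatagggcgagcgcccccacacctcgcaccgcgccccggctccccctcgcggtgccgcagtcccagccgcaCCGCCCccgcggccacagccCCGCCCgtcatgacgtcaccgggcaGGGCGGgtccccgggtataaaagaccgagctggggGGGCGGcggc
TUBB2B (chr6:3227654-3227903, minus strand): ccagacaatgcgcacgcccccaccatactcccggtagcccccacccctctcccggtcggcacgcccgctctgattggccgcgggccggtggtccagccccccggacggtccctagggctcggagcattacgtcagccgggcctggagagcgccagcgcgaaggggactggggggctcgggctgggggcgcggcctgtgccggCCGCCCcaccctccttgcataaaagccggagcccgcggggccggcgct

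The GC box letters occurred 5 times before TUBB2A and 1 time before TUBB2B, and at least once in 42.6% of 35116 RefSeq promoters of this length. The motif CCAAT, on either strand, occurred 0 times before TUBB2A and 1 time before TUBB2B, and in 32.0% of promoters. The motif TATAAA occurred 1 time before TUBB2A and 0 times before TUBB2B, and in 10.7% of promoters. GC made up 79.2% and 75.2% of the bases. A match describes the letters only.

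TUBA4A (chr2:220114432-220142624, minus strand) overlaps STK16, a kinase gene on the opposite strand, by 628 exon bases. STK16 had 38.3 TPM in si-NC against 16.5 TPM in si-FTO (log2 ratio -1.16), opposite in sign to that of TUBA4A. The 10 nearest genes with at least 0.5 TPM had a median log2 ratio of -0.56. TUBB4A (chr19:6494330-6502859, minus strand) shared 520 exon bases with the antisense gene ENSG00000268191, which had 1.02 and 0.0877 TPM. C3, a complement gene near TUBB4A, had 1.89 TPM in si-NC against 271.8 TPM in si-FTO (log2 ratio 6.56), so that genes of this stretch went in both directions.

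TUBA1B, TUBA1A and TUBA1C lie within 146819 bases of chromosome 12. TUBA1B shared 1571 exon bases with the antisense gene TUBA1B-AS1, which had 558.5 TPM in si-NC against 488.8 TPM in si-FTO. TUBB6 shared 837 exon bases with AFG3L2, a mitochondrial protease gene on the opposite strand with 64.9 and 104.7 TPM. TUBA1A and TUBA1C, on opposite strands, shared 345 exon bases with each other and had log2 ratios of -0.90 and 0.61. The libraries were made with a stranded kit, but whether the counting used strand is not given in the sources used here, so values of such opposed pairs are uncertain.

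Genes whose pair of means was closest to that of a member, outside the tubulin family, were sought by the distance in log2 of TPM + 1 over the 2 group means. Closest to TUBA4A were BTBD3 (19.8 and 172.7 TPM), AVPI1 (19.4 and 178.2 TPM) and PODXL (16.3 and 147.5 TPM), at distances of 0.157, 0.180 and 0.196. Closest to TUBB2B were TLE4 (106.0 and 2.79 TPM), ISYNA1 (102.7 and 4.18 TPM) and DIPK1B (109.5 and 4.40 TPM), at distances of 0.295, 0.5851 and 0.591. With 2 values per gene, such likeness describes levels only.

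Of 4 genes of gamma, delta and epsilon tubulin, 1 was lower past the threshold, as were 17.0% of all genes, and 0 were higher, as were 11.4%. TUBG1, the main gamma tubulin that nucleates microtubules, had 267 TPM in si-NC against 230.6 TPM in si-FTO (log2 ratio -0.21). TUBG2 and TUBD1, a gene of delta tubulin, had log2 ratios of -0.27 and -0.13. TUBE1, the gene of epsilon tubulin at centrioles, had 41.8 TPM in si-NC against 11.4 TPM in si-FTO (log2 ratio -1.78), past the threshold. Of 18 genes of the gamma-tubulin ring complex and its augmin recruiters, 1 was higher and 1 lower past the threshold, against 11.4% and 17.0% of all genes, and 2 were lower with a pseudocount of 0.1 TPM, when 25.1% of all genes were. TUBGCP3 had 19.8 and 53.9 TPM, and TUBGCP6 had 47.5 and 13.0 TPM. MZT2B, the most abundant in si-NC, had 190.3 and 186.2 TPM. HAUS3 and HAUS4, genes of augmin subunits, had log2 ratios of -0.99 and 0.58.

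Tubulin folding starts with prefoldin and the chaperonin CCT and ends with cofactors that assemble the dimer. Of 20 folding genes found of 21 listed, 0 were higher and 1 was lower past the threshold, where 11.4% and 17.0% of all genes were. Their median log2 ratio was -0.42, that of all genes -0.20. After median-ratio scaling, 0 were lower, when 14.1% of all genes were. CCT4, past the threshold only without that scaling, had 650.2 TPM in si-NC against 284.5 TPM in si-FTO (log2 ratio -1.19). CCT3, the most abundant in si-NC, had 1096 and 813 TPM, and TCP1 had 540.5 and 280.6 TPM. CCT5 and the prefoldin gene PFDN5 had the highest log2 ratios, 0.71 and 0.60. Ratios of the folding genes thus ran from -1.19 to 0.71, and those of the isotypes from -5.14 to 3.04. Both sets were chosen with earlier results of these data known, so no conclusion is drawn from the spans.

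Tubulin mRNAs are also degraded on the ribosome when free dimers accumulate: TTC5 binds the start of the nascent tubulin chain, and SCAPER brings in the CCR4-NOT deadenylase. The first 24 coding bases, with capitals for the first 4 codons, which encode the residues that are bound, are shown for isotypes with low, steady and high ratios. The alpha stretches are spliced from exons 1 and 2, so their coordinates span the intron.

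TUBB2A (chr6:3157674-3157697, minus strand): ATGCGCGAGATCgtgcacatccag
TUBB2B (chr6:3227754-3227777, minus strand): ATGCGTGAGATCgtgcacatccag
TUBB4B (chr9:140135813-140135836, plus strand): ATGAGGGAAATCgtgcacttgcag
TUBA1B (chr12:49523485-49525083, minus strand): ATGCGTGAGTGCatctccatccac
TUBA4A (chr2:220116932-220118580, minus strand): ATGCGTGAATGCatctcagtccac

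The 10 isotypes had 7 different sequences over the first 4 codons, and TUBA1A, TUBA1B and TUBA1C shared 1 of them. Within each class these differences are between synonymous codons. Every beta member encodes methionine, arginine, glutamate and isoleucine, and every alpha member encodes methionine, arginine, glutamate and cysteine. Of 12 autoregulation genes, 0 were higher and 1 was lower past the threshold, with a median log2 ratio of -0.64. Over all genes the shares were 11.4% and 17.0% and the median -0.20. CNOT3 had 85.1 TPM in si-NC against 31.8 TPM in si-FTO (log2 ratio -1.39), and CNOT9 had a log2 ratio of -0.80. CNOT1, the scaffold of the complex and the most abundant of these genes in si-NC, had 214.3 and 125.2 TPM. TTC5 had 14.1 and 7.81 TPM, a log2 ratio of -0.77. SCAPER had 6.60 and 6.63 TPM, a log2 ratio of 0.01, and CNOT2 had the highest ratio, 0.16.

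Of 26 genes of tubulin modification, 18 had at least 0.5 TPM in a group, and of these 0 were higher and 6 were lower past the threshold. Among all genes, 17.0% were lower and 11.4% higher, a lean in the same direction. After median-ratio scaling, 3 of the 18 were lower, near the background of 14.1% lower and 13.6% higher under that scaling. The median log2 ratio of the list was -0.91, beside -0.20 over all genes. VASH1, which removes the terminal tyrosine of alpha tubulin, had 33.8 TPM in si-NC against 5.002 TPM in si-FTO (log2 ratio -2.53). Its relative VASH2 had 6.47 and 1.52 TPM, and SVBP, the partner of both, had 23.8 and 10.4 TPM. TTL, the ligase that adds the tyrosine back, had 23.0 and 17.5 TPM, a log2 ratio of -0.38. VASH1 and VASH2 were each lower past the threshold, as were SVBP, TTLL3, TTLL12 and SIRT2, as single genes and not as a counted class. No value here measures tyrosination, and a link to the share of TUBA4A was not tested. TTLL12, the most abundant of these genes in si-NC, had 169.9 and 79.7 TPM. TTLL5 and the deacetylase gene HDAC6 had the highest log2 ratios, 0.29 and 0.04.

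Of 29 microtubule-associated protein genes, 27 had at least 0.5 TPM in a group, and of these 2 were higher and 9 were lower past the threshold, with a median log2 ratio of -0.47, beside 11.4% higher, 17.0% lower and a median of -0.20 over all genes. MAP1B, which stabilises microtubules in axons, had 14.5 TPM in si-NC against 0.0531 TPM in si-FTO (log2 ratio -3.88). MAP7D2, a gene of a kinesin-1 recruiter, had 13.6 and 0.0828 TPM, a log2 ratio of -3.75. MAPT, the gene of tau, had 10.3 and 3.06 TPM. In the other direction, CLIP1, a plus-end tracking protein gene, had 10.5 TPM in si-NC against 50.9 TPM in si-FTO. MAP7, an epithelial relative of MAP7D2, had 14.6 and 56.5 TPM, a log2 ratio of 1.88. PRC1, which bundles the central spindle and was the most abundant of these genes in si-NC, had 171.5 and 215.0 TPM.

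Of 16 genes of depolymerizers and severing enzymes, 13 had at least 0.5 TPM in a group, and of these 0 were higher and 3 were lower past the threshold, beside 11.4% and 17.0% of all genes. STMN3, a neuronal relative of stathmin that binds tubulin dimers, had 65.6 TPM in si-NC against 0.22 TPM in si-FTO (log2 ratio -5.77). STMN1, the stathmin gene of dividing cells and the most abundant of the list, had 360.4 and 372.2 TPM, a log2 ratio of 0.05. KIF18A and KIF2C, genes of kinesins that shorten spindle microtubules, had the highest log2 ratios, 0.41 and 0.35.

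**Figure D5:**
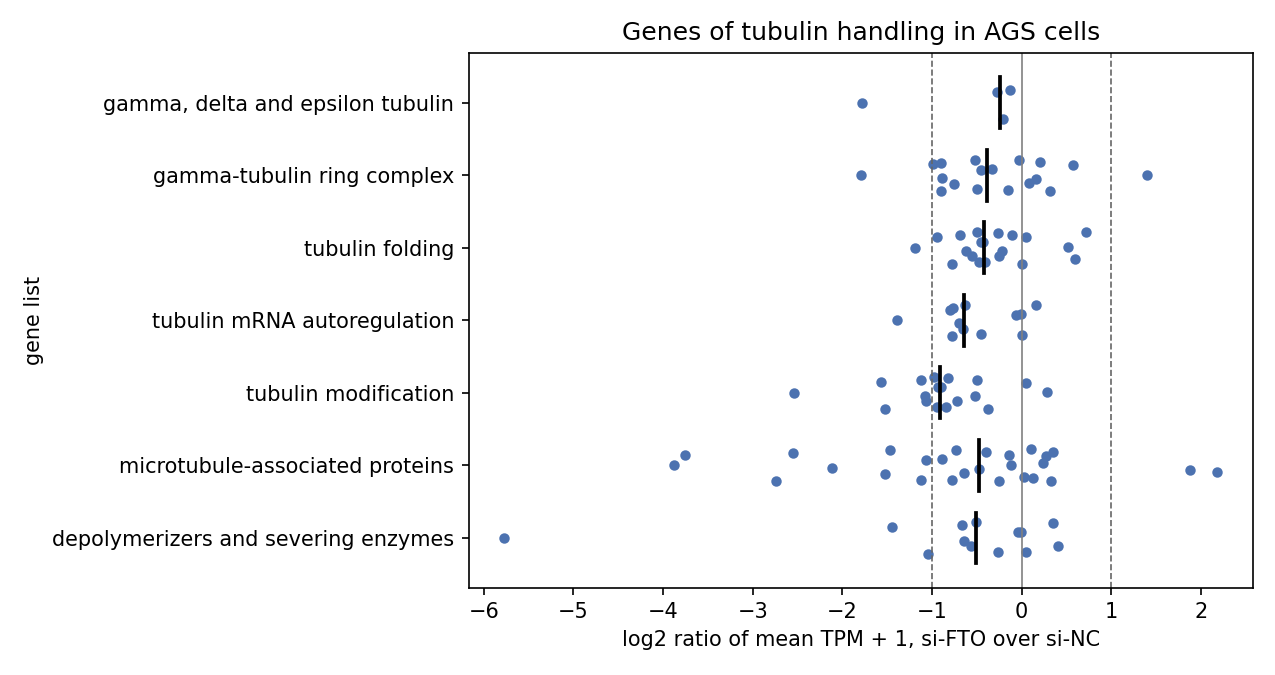
Log2 ratio of mean TPM + 1, si-FTO over si-NC, for each gene with at least 0.5 TPM in a group, by list, with the list's median as a black bar and dashed lines at 1 in size. The modification list has its median at -0.91, and STMN3 at -5.77 is the lowest gene of the severing and depolymerizing list.

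Markers of other cell types were also measured, and their part in the isotype levels was not tested. In the counts that follow, the shares of all genes were 11.4% higher and 17.0% lower. Of 9 fibroblast or mesenchymal genes, 7 had at least 0.5 TPM in a group, and of these 3 were higher and 1 lower past the threshold. The summed TPM of the 9 was 455.9 in si-NC against 798.8 in si-FTO, most of it from VIM with 439.9 and 752.0 TPM. The defining gene COL1A2 had 0.00982 TPM in si-NC and was listed at 0 in si-FTO. COL1A1 and PDGFRB had the highest log2 ratios of that list, 1.73 and 2.21, COL3A1 had -1.22 and LUM had -0.17. Of 6 leukocyte markers, 3 had at least 0.5 TPM in a group, 1 was higher and 1 lower past the threshold, and they summed to 4.78 and 7.59 TPM, with PTPRC listed at 0 in both groups. The most abundant leukocyte marker in si-FTO was CD68, with 6.42 TPM. Endothelial markers summed to 0.414 and 41.0 TPM over the 3 genes found of 4, nearly all of it from CDH5 with 40.9 TPM in si-FTO. The epithelial list had 5 genes higher and 2 lower past the threshold among 8 with at least 0.5 TPM. ELF3, an epithelial transcription factor gene, had 0.115 TPM in si-NC against 93.3 TPM in si-FTO, and the adhesion gene CDH1 had 3.67 and 0.685 TPM.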

How the data were processed

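AGS cells were sequenced as 3 si-NC and 3 si-FTO libraries. TPM was deposited by the authors as 1 mean per group for 58174 genes. Per the methods of the study, reads were mapped to hg19 with Bowtie and quantified with RSEM, whereas the submitters' processing notes name HISAT2. The annotation, the strand setting and the read length are not given in the sources used here. Depth is unknown. The authors' fold changes, p-values and q-values, and their table of changed genes, were not used. The entry 0.0001 TPM stands for 0 and was taken so. Log2 ratios used a pseudocount of 1 TPM, a minimum mean of 0.5 TPM in at least 1 group and a threshold of 1 in size. Of the 58174 identifiers, 55726 were matched to a gene name entry and 40934 had a symbol. Sequences and positions came from GRCh37 with GENCODE release 44 lifted to it, and promoters from RefSeq on GRCh38.p14. Protein-coding genes and pseudogenes were taken from that annotation. Pairs of coding sequences were aligned end to end with Biopython 1.88. Neighbours were the 5 genes on each side with at least 0.5 TPM.

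The genes named were all 10 members, the other protein-coding alpha and beta tubulins, FTO, and from each list the most abundant in si-NC and the 2 highest and 2 lowest by log2 ratio. Some genes chosen by this rule are not named in the text. The 3 genes closest in level were named for the alpha and the beta member with the largest log2 ratio in size. Other genes, among them overlapping and neighbouring genes, pseudogenes, TTC5, TTL, SVBP, MAPT and TUBA1B-AS1, were picked once their values were known. The members and lists were chosen with earlier results of these data known. TBCE, CCDC39 and PECAM1 were not matched to the table. Alternatives were another pseudocount, other minimum levels, quantile and median-ratio scaling, 0.0001 kept as a value, a 1.5-fold threshold and other denominators. Calculations used Python 3.11.15, numpy 2.4.6, pandas 2.3.3 and matplotlib 3.10.9 and were tested on simulated data.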

Additional observations from a re-analysis of the deposited data

How the results depend on the processing

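No paired analysis was possible because the table holds 1 mean per group, and leaving out a library could not be run for the same reason. The missing spread between libraries and the unknown depth limit every value. TUBB2A, TUBB2B and TUBB4A stayed lower and TUBA4A stayed higher past the threshold under each alternative run, with log2 ratios of their own from -3.34 to -3.02, -5.58 to -4.96, -3.49 to -3.06 and 3.04 to 3.25. FTO ranged from -2.19 to -1.85. Median-ratio scaling removed a shift of -0.21 between the groups and placed TUBB6 past the threshold at 1.06, so that 2 members were higher, beside 13.6% of all genes. With a 1.5-fold threshold, 3 members were higher and 5 lower, with TUBB3 at -0.71, TUBB6 at 0.85, TUBA1A at -0.90 and TUBA1C at 0.61 added, beside 18.8% and 31.2% of all genes. Without a filter, 4.02% and 6.003% of all genes were higher and lower, since unexpressed genes then count. With 0.0001 kept and no pseudocount, 26.1% were lower, beside 25.1% with a pseudocount of 0.1 TPM and 0.0001 read as 0. In the former run 2 choices differ at once, and the part of each was not tested. For the sum of TUBA1A, TUBA1B and TUBA1C, an alternative chosen after seeing the data like the sum of TUBB2A, TUBB2B and TUBB2BP1 and the minimum of 10 TPM, the log2 ratio was 0.15, a value set mostly by TUBA1B that does not test the -0.90 of TUBA1A. With TUBB in the denominator, TUBB2A, TUBB2B and TUBB4A made up 8.24% in si-NC against 0.649% in si-FTO, and TUBB4B 19.99% and 29.8%; with every protein-coding beta tubulin, the values were 8.23%, 0.649%, 19.98% and 29.8%, since TUBB is the larger part. Alpha over beta tubulin was 3.43 in si-NC against 4.49 in si-FTO over the members, and 1.01 and 1.47 over all protein-coding genes, for the same reason. Of 42 list counts under alternatives, 39 stayed within 1.5 times and 3 did not; under median-ratio scaling, 3 modification genes and 0 folding genes were lower, beside 14.1% of all genes. With a pseudocount of 0.1 TPM, 2 ring complex genes and 9 modification genes were lower, the latter within 1.5 times, beside 25.1% of all genes.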
